A study of Homo sapiens with 8 samples.

Results

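The matrix metalloproteinases (MMP), the ADAM and ADAMTS proteins and the tissue inhibitors of metalloproteinases (TIMP) were described in hCMEC/D3 cells. Members were taken by gene symbol alone: MMP, ADAM or ADAMTS followed by a number (with A or B allowed after an MMP number), and TIMP1 to TIMP4. The rule used no measured value and took 69 of the 23346 listed genes, namely 24 MMP, 4 TIMP, 22 ADAM and 19 ADAMTS genes. hCMEC/D3 is a human endothelial cell line, immortalised from brain microvessels and used to model the blood-brain barrier in culture. Polyadenylated RNA of the line was sequenced in 8 replicate libraries that carried the same labels, with no treatment, genotype or time named, so the design held 1 group and no comparison between conditions. The labels did not say whether the replicates were separate cultures, so p-values measure only the spread between these libraries, which may be technical. As a model the samples are limited to 1 immortalised line without the pericytes, astrocytes and blood flow of a brain vessel.

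MMPs are zinc enzymes that cleave collagens, fibronectin, laminins and other matrix proteins, either after secretion or while anchored in the cell membrane. ADAMs are membrane proteins, many of which cut the ectodomains of growth factors, adhesion molecules and receptors off the cell surface, and ADAMTS enzymes are their secreted relatives with thrombospondin repeats. TIMPs are small secreted proteins that block the active site of these enzymes. In brain vessels the balance of the enzymes and TIMPs is studied for its bearing on the basement membrane and on tight junctions.

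Expression was measured as counts per gene. Levels are given as CPM, counts scaled to library size, with library sizes scaled by the trimmed mean of M-values, and, where genes are compared with each other, as CPM per kilobase of the canonical transcript (RPKM). The libraries held 69388544 to 90205244 counts, all 186768 counts in the table were even, and counting limits are therefore given on halved counts, called read pairs (34694272 to 45102622 per library). A count of 0 allowed a level of up to 0.0665 to 0.088 CPM, the level of 3 read pairs, which covers counting error only. Of the cell type markers, 10 of 10 endothelial genes were detected, against 4 of 7 mural, 2 of 6 fibroblast, 1 of 4 epithelial, 1 of 6 leukocyte, 0 of 3 astrocyte and 1 of 3 neuron genes. The summed level was 3315 to 5423 CPM for the endothelial genes over the libraries, 142 to 211 CPM for the fibroblast genes (almost all of it COL1A1 and COL1A2), 45.4 to 70.5 CPM for the mural genes, 47.7 to 85.04 CPM for the leukocyte genes (CD68 in the main), and at most 5.66 CPM for each other list. MPO and AQP4 were at 0 in all 8 libraries. Libraries differed in how the level of a gene moved with its transcript length: the slope per doubling of length was between 0.08 and 0.14 on the log2 scale in replicates 1, 3, 4, 5 and 6, -0.10 in replicate 7, -0.22 in replicate 2 and -0.33 in replicate 8.

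The 6 promoters below were picked with levels known. Those of the inhibitor TIMP1, the membrane-type enzyme MMP14 and the sheddases ADAM10 and ADAM17 belong to detected genes. The others are of MMP7 and MMP10, 2 genes of a cluster with few reads. Each is the 200 bases upstream of the gene's start on the gene's strand, 5′ to 3′, from RefSeq (build GRCh38.p14). Capitals mark 3 motifs, each searched on both strands, so that a reverse complement is marked too. The GC box, known for binding SP1, is GGGCGG. The TATA box of many regulated promoters is TATAAA, and the AP-1 site, known for binding FOS and JUN proteins, is TGAGTCA. No 2 of these motifs overlapped in the sequences shown. RefSeq entries were matched for 39 of the 69 members.
TIMP1: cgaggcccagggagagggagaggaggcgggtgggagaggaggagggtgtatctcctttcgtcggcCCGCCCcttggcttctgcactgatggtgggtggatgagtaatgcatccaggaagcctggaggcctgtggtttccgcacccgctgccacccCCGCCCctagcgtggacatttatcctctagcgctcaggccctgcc
MMP14: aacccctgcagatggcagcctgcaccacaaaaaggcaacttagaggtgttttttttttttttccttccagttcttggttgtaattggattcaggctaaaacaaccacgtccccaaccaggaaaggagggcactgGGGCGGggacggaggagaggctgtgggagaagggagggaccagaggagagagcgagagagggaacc
ADAM10: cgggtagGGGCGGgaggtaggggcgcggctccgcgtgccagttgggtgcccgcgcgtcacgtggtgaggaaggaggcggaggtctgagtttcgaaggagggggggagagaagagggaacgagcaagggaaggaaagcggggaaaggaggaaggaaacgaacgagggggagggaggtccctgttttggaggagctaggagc
ADAM17: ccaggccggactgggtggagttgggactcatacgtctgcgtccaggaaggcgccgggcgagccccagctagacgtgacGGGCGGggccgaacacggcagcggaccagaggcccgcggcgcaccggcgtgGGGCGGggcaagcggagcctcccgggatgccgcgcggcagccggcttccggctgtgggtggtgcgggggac
MMP7: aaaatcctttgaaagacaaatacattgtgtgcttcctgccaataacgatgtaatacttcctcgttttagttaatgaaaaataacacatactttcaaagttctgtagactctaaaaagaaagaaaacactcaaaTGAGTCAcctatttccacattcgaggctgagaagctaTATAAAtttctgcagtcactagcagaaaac
MMP10: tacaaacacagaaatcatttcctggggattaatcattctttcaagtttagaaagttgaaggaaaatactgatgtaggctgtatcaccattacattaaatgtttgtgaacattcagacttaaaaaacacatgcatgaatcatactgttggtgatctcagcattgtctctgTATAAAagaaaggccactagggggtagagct

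They lie at chrX:47582236-47582435 (TIMP1), chr14:22836385-22836584 (MMP14), chr15:58749708-58749907 (ADAM10, minus strand), chr2:9555831-9556030 (ADAM17, minus strand), chr11:102530748-102530947 (MMP7, minus strand) and chr11:102780629-102780828 (MMP10, minus strand). The 4 promoters of the detected genes held GC boxes, beginning 135 and 45 bases before the start in TIMP1, 66 bases before it in MMP14, 193 in ADAM10, and 122 and 71 in ADAM17. MMP7 and MMP10 held no GC box and a TATA box 30 and 31 bases before the start, and MMP7 also held an AP-1 site 67 bases before it. Their GC content was 33.5% and 35.5%, against 65.0% in TIMP1, 53.5% in MMP14, 65.5% in ADAM10 and 76.0% in ADAM17. Over 35116 RefSeq promoters of the same length, 40.1% held the GC box, 8.59% the TATA box and 3.54% the AP-1 letters. A match describes letters only, and the 6 genes were picked with their levels known. The contrast of MMP7 and MMP10 with the detected genes cannot be told apart from that choice. MMP1, the detected gene of their cluster, is not shown, and no comparison over the members was made.

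Of the 69 members, 25 reached at least 1 CPM in all 8 libraries, the limit used here to call a gene detected, which is 36.2% beside 51.3% of all 23346 listed genes. Of the 18814 listed protein-coding genes, 60.3% were detected, with a median of 2.62 RPKM over all of them. The detected genes were all 4 TIMPs, 6 of 24 MMPs, 10 of 22 ADAMs and 5 of 19 ADAMTS genes. The members together took 0.257% ± 0.0147 of the counts (SD, n = 8). Their median level was 0.148 RPKM, beside 1.39 RPKM over all listed genes with a length, and among detected genes it was 4.57 RPKM for the members and 11.4 RPKM for all. With canonical transcript lengths, 6 genes (TIMP2, TIMP1, ADAM9, ADAM15, MMP14 and TIMP3) made up 89.6% ± 1.35 of the summed RPKM of the members (SD, n = 8). The 4 TIMPs held 49.3% ± 5.35 of that sum, the ADAMs 36.1% ± 6.66, the MMPs 13.2% ± 1.88 and the ADAMTS genes 1.28% ± 0.246. These shares rest on transcript length: of all counts, the ADAMs took 0.114% ± 0.0220 and the TIMPs 0.0985% ± 0.00841, and on CPM ADAM10 (143 ± 57.3) was above TIMP1 (126 ± 56.9).

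**Figure D1:**
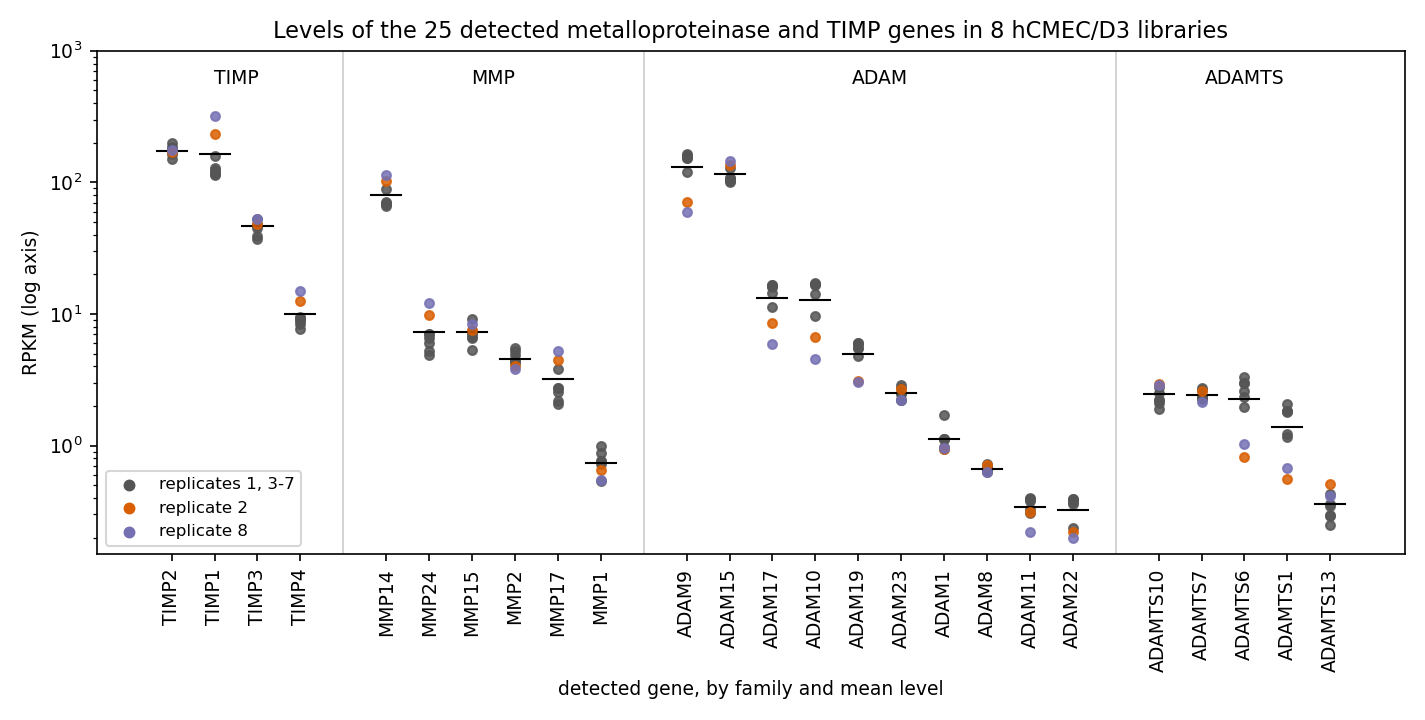
RPKM (log axis) of the 25 detected members in each of the 8 libraries, grouped by family and ordered by mean; each point is 1 library, the bar is the mean, and replicates 2 and 8 are coloured. TIMP2, TIMP1, ADAM9, ADAM15 and MMP14 stand highest, with means from 80.7 to 174 RPKM, while all ADAMTS genes lie at or below 3.32 RPKM in all libraries.

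TIMP2 had the highest mean level of the members on the per-length scale. It inhibits most MMPs and also takes part, with MMP14, in the activation of pro-MMP2 at the cell surface. TIMP2 (chr17:76849059-76921472 in GRCh37, 5 exons) was at 198, 169, 169, 180, 165, 186, 150 and 175 RPKM in replicates 1 to 8. These 8 values lay close together, with a mean of 174 ± 14.6 RPKM (SD, n = 8), and replicates 2 and 8 were inside the range of the rest.

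TIMP1, a secreted inhibitor that also binds CD63, had nearly the same mean with canonical transcript lengths, and a far wider spread. TIMP1 (chrX:47441690-47446190, 6 exons, a canonical transcript of 769 nt) was at 115, 231, 114, 119, 125, 127, 159 and 319 RPKM in replicates 1 to 8, a mean of 164 ± 74.0 RPKM (SD, n = 8). Replicates 2 and 8 stood above all others, replicate 7 came next, and the other 5 lay between 114 and 127 RPKM. With those lengths the log2 ratio of TIMP1 to TIMP2 within a library averaged -0.19 ± 0.59 (SD, n = 8), with TIMP1 higher in replicates 2, 7 and 8 only. Its sign was not settled (exact permutation test by flipping signs, two-sided, p = 0.375, Benjamini-Hochberg adjusted p = 0.392 over 23 pairs). With the longest annotated transcripts it was -0.70 and past the threshold, with TIMP1 higher in 1 library (exact permutation, adjusted p = 0.0245). With the median length of complete coding transcripts it was -0.29 and not past it (exact permutation, adjusted p = 0.214). The result thus depends on the length chosen. The authors' CQN values come from conditional quantile normalisation, which adjusts each library for the length and GC content of genes. On them the same ratio was -2.05 and past the threshold, with TIMP2 higher. That is nearer to the ratio on CPM, where no length is used (-2.43), than to that on RPKM. Whether CQN values put different genes on a per-length scale was not tested, so they do not settle the order.

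TIMP3, which binds to the matrix and also inhibits ADAM17 and several ADAMTS enzymes, was at 46.2 ± 5.50 RPKM (SD, n = 8), between 37.4 and 52.4 RPKM with a median level of 218 CPM. TIMP3 was below TIMP2 in all 8 libraries, by 1.92 ± 0.12 on the log2 scale of RPKM (exact sign-flip permutation p = 0.00781, the smallest that 8 libraries allow, adjusted p = 0.00898). It was below TIMP1 by 1.73 ± 0.52 on that scale in 8 of 8 libraries with the same p. The ratio of TIMP1 to TIMP3 turned to -0.85 on CPM, where no length is used, and to -0.079 on CQN values, where its sign was not settled (exact permutation, adjusted p = 0.141). TIMP4 was the lowest of the 4, at 10.1 ± 2.42 RPKM, from 7.73 to 14.9 RPKM, with the highest values in replicates 8 and 2. TIMP1, TIMP3 and TIMP4 overlap the synapsin genes SYN1, SYN3 and SYN2 in the annotation, and TIMP2 overlaps LOC100653515. Whether the counting used strand is not given in the sources used here, so reads of these overlapping genes cannot be told apart.

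Among the MMPs the detected genes were 4 of the 6 membrane-type enzymes, MMP14, MMP24, MMP15 and MMP17, and of the secreted enzymes only MMP2 and MMP1. MMP14, a membrane-anchored collagenase of migrating endothelial cells, was by far the highest. MMP14 (chr14:23305793-23316803, 10 exons) was at 70.3, 102, 65.9, 69.4, 68.6, 67.9, 88.4 and 113 RPKM in replicates 1 to 8, a mean of 80.7 ± 18.3 RPKM (SD, n = 8). Replicates 8, 2 and 7 were above the other 5, which lay within 65.9 to 70.3 RPKM. MMP14 exceeded MMP15, a related membrane-type enzyme, in all 8 libraries by 3.44 ± 0.22 on the log2 RPKM scale (exact sign-flip permutation p = 0.00781, adjusted p = 0.00898).

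The other membrane-type enzymes were lower by about an order of magnitude. MMP24 was at 7.34 ± 2.43 RPKM, from 4.88 to 12.04 RPKM, and MMP15 at 7.28 ± 1.19 RPKM, from 5.32 to 9.22 RPKM (SD, n = 8). MMP17, which is held in the membrane by a lipid anchor, was at 3.23 ± 1.15 RPKM, from 2.07 to 5.25 RPKM. MMP24 and MMP17 shared the order of MMP14, with replicates 8 and 2 highest, while MMP15 was highest in replicate 7. The second lipid-anchored enzyme, MMP25, missed the limit in replicate 1 alone (0.880 CPM) and averaged 1.24 ± 0.249 CPM. MMP16 had 1 read pair in all libraries together.

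The gelatinases, which degrade denatured collagens and type IV collagen of basement membranes, were split. MMP2 (chr16:55513081-55540586, 13 exons) was at 5.55, 4.00, 4.23, 5.23, 4.45, 4.92, 4.37 and 3.80 RPKM in replicates 1 to 8, a mean of 4.57 ± 0.609 RPKM (SD, n = 8). Its lowest values were in replicates 8 and 2, by a small margin. MMP9, the gelatinase often measured in neuroinflammation, had 44 read pairs in all and a mean of 0.141 ± 0.0640 CPM, from 0.0587 to 0.259 CPM, which is within a few read pairs of the counting limit. The ratio of MMP2 to MMP9 was 4.87 ± 0.36 on the scale of log2 (RPKM + 0.1), but 6.11 with 0.01 added and 2.39 with 1 added, so its size is set by that constant. Within the group that activates pro-MMP2, MMP14 exceeded MMP2 by 4.09 ± 0.46, MMP2 was at -5.23 ± 0.15 against TIMP2, and MMP14 at -1.13 ± 0.36 against TIMP2, all on log2 RPKM, each with 1 sign in 8 of 8 libraries (exact sign-flip permutation p = 0.00781, adjusted p = 0.00898).

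A cluster of 9 MMP genes on chromosome 11 (GRCh37, chr11:102391239-102826463) holds MMP7, MMP20, MMP27, MMP8, MMP10, MMP1, MMP3, MMP12 and MMP13 in that order. Of these genes only MMP1, the interstitial collagenase, was detected. MMP1 was at 1.06, 1.29, 1.97, 1.51, 1.43, 1.51, 1.73 and 1.09 CPM in replicates 1 to 8, a mean of 1.45 ± 0.308 CPM (SD, n = 8, 450 read pairs in all). Replicates 1 and 8 were lowest and close to the limit. Next came MMP10, a stromelysin, with 80 read pairs in all, 2 to 19 per library (0.260 ± 0.169 CPM), and MMP7, a matrilysin, with 55 in all, 3 to 13 per library (0.182 ± 0.103 CPM). MMP13 had 8 read pairs over all libraries, MMP12 had 4, MMP3 and MMP8 had 3 each, MMP20 had 2 and MMP27 had none. MMP1 and MMP3 overlap the transcript LOC100288077 in the annotation, and the ratio of MMP1 to TIMP1 was -7.54 ± 0.72 on log2 (RPKM + 0.1), with 1 sign in all 8 libraries (exact sign-flip permutation p = 0.00781, adjusted p = 0.00898).

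**Figure D2:**
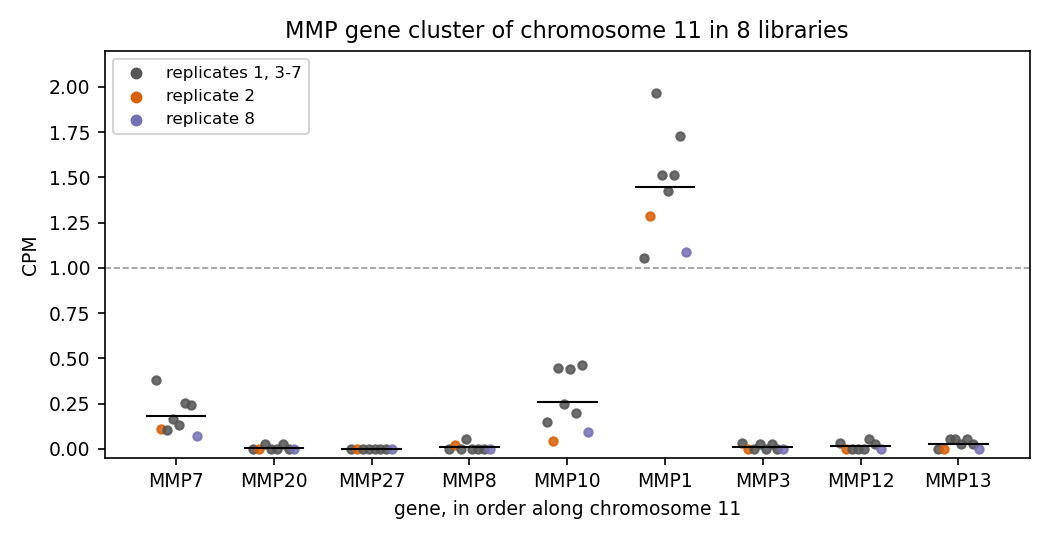
CPM of the 9 MMP genes of the chromosome 11 cluster in gene order, 1 point per library, with the mean as a bar, replicates 2 and 8 coloured, and a dashed line at the detection limit of 1 CPM. MMP1 lies above the line in all 8 libraries, and MMP10 and MMP7 stay below 0.5 CPM.

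The remaining MMPs were near or below the limit. MMP28, cleaved to its active form by furin like MMP11, averaged 1.07 ± 0.813 CPM (SD, n = 8) and passed 1 CPM in replicates 2 and 8 alone, at 2.35 and 2.32 CPM. MMP11 was at 0.881 ± 0.189 CPM and MMP19 at 0.673 ± 0.182 CPM. MMP23B had 19 read pairs, MMP21 had 17 and MMP26 had none. MMP23A, listed as a pseudogene, had 1 read pair and is a near copy of MMP23B, so that their counts are uncertain.

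Of the ADAMs, the 9 genes grouped here as sheddases, which carry or are studied for ectodomain shedding, held 6 of the 10 detected genes. ADAM9 (chr8:38854505-38962779, 22 exons) and ADAM15 (chr1:155023762-155035252, 23 exons), an ADAM with an integrin-binding RGD sequence, were the highest. ADAM9 was at 165, 70.9, 161, 153, 153, 158, 121 and 59.4 RPKM in replicates 1 to 8, a mean of 130 ± 42.3 RPKM (SD, n = 8). ADAM15 was at 101, 135, 107, 107, 103, 104, 129 and 146 RPKM, a mean of 117 ± 17.3 RPKM. On RPKM the libraries thus ordered these genes in opposite ways: replicates 2 and 8 were the lowest for ADAM9 and the highest for ADAM15. The mean log2 ratio of ADAM9 to ADAM15, 0.08 ± 0.78, was within its spread. On the authors' CQN values replicates 2 and 8 were the 2 lowest for both genes, with ADAM15 at -0.18 and -0.21 from its mean. The longest annotated transcripts would lower ADAM9 to 75.5 RPKM and ADAM15 to 75.9 RPKM.

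ADAM10 and ADAM17 are the main constitutive and inducible sheddases of the endothelium, with Notch receptors, VE-cadherin, APP and TNF among their known substrates. ADAM10 (chr15:58888510-59042177, 16 exons) was at 190, 74.6, 188, 185, 159, 191, 108 and 50.3 CPM in replicates 1 to 8. ADAM17 (chr2:9629411-9695917, 19 exons) was at 72.5, 37.4, 70.8, 71.9, 63.6, 73.2, 50.0 and 26.2 CPM. The order was the same for both genes at the low end, with replicate 8 lowest, then 2, then 7. These 3 libraries were also those with a negative length slope over the detected genes (-0.33, -0.22 and -0.10). A link was not tested, and the share of all detected genes with this order was not counted. Per length, ADAM10 averaged 12.8 ± 5.14 RPKM and ADAM17 13.3 ± 4.15 RPKM (SD, n = 8), and their log2 ratio of -0.10 ± 0.19 had no settled sign (4 of 8 libraries each way, exact sign-flip permutation p = 0.234, adjusted p = 0.257). That ratio rests on the transcript length: ADAM10 was higher by 1.24 on log2 CPM and by 1.07 on CQN values. Its level was 102.6 RPKM with the median length of its complete coding transcripts (1396.5 nt) in place of the canonical 11158 nt. That median takes annotated transcripts of any coding length, and which of them the cells used was not tested. The 102.6 RPKM thus shows only how far the level depends on the length chosen. ADAM9 exceeded ADAM10 by 3.38 ± 0.19 and ADAM15 exceeded it by 3.30 ± 0.93 on log2 RPKM with the canonical lengths, in 8 of 8 libraries, with the same length limit: the second ratio was 0.38 with the median coding lengths (exact sign-flip permutation, adjusted p = 0.343). ADAM17 was at -1.86 ± 0.61 against its inhibitor TIMP3 on log2 RPKM, lower in all 8 libraries (exact sign-flip permutation p = 0.00781, adjusted p = 0.00898). ADAM10 overlaps HSP90AB4P and ADAM15 overlaps LOC100505666 in the annotation.

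ADAM19, a neuregulin sheddase, followed at 4.98 ± 1.23 RPKM (SD, n = 8), from 3.07 RPKM in replicate 8 and 3.11 RPKM in replicate 2 to 6.00 RPKM in replicate 1. ADAM8, known from leukocytes, had the smallest SD of log2 CPM among detected members (0.07, but 0.18 on CQN values, where MMP14, TIMP4 and ADAM15 among others were lower), at 0.668 ± 0.0384 RPKM, from 0.630 to 0.725 RPKM. ADAM12, ADAM28 and ADAM33 were not detected, with 8, 10 and 52 read pairs over all libraries.

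ADAM11, ADAM22 and ADAM23 lack an active zinc site and act as adhesion or LGI1-binding proteins in the brain, and all 3 were detected at low levels. ADAM23 was at 2.49 ± 0.255 RPKM (2.21 to 2.86), ADAM11 at 0.342 ± 0.0630 RPKM (0.220 to 0.400) and ADAM22 at 0.321 ± 0.0856 RPKM (0.199 to 0.395). ADAM23 exceeded ADAM22 in 8 of 8 libraries, the log2 ratio of ADAM22 to ADAM23 being -2.64 ± 0.32 on RPKM + 0.1 (exact sign-flip permutation p = 0.00781, adjusted p = 0.00898) and -1.401 with 1 added. None of the 8 ADAMs known mainly from the reproductive tract was detected: ADAM32 was the highest at 0.563 ± 0.189 CPM, ADAM21 had 111 read pairs, ADAM20 had 15, ADAM7 and ADAM18 had 1 each, and ADAM2, ADAM29 and ADAM30 had none. The tenth detected gene, listed as ADAM1, is a pseudogene in the human annotation (ADAM1A) and was at 1.11 ± 0.257 RPKM. ADAM6, listed in the annotation as a non-coding RNA, had no read pair.

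The ADAMTS genes were low throughout. ADAMTS10, which acts in fibrillin microfibrils, was at 2.45 ± 0.391 RPKM (1.91 to 2.92), and ADAMTS7, a protease of COMP in the vessel wall, at 2.42 ± 0.217 RPKM (2.13 to 2.74) (SD, n = 8). ADAMTS6 (chr5:64444563-64777704, 25 exons), the close relative of ADAMTS10, was at 17.1, 6.03, 21.7, 19.1, 24.2, 21.8, 14.5 and 7.48 CPM in replicates 1 to 8. ADAMTS1 (chr21:28208606-28217728, 9 exons), a versican- and aggrecan-cleaving protease, was at 6.07, 2.90, 10.7, 9.56, 9.25, 9.49, 6.33 and 3.48 CPM. Replicates 2 and 8 were the lowest for both genes. Per length ADAMTS6 was at 2.26 ± 0.922 RPKM and ADAMTS1 at 1.39 ± 0.574 RPKM.

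The ratio of ADAMTS6 to ADAMTS10 averaged -0.23 ± 0.89 on log2 (RPKM + 0.1), was positive in 5 of 8 libraries, and at -1.71 and -1.42 was far lower in replicates 2 and 8 (exact sign-flip permutation p = 0.477, adjusted p = 0.477). Without those 2 libraries the mean was 0.22. ADAMTS13, the plasma protease of von Willebrand factor, was just above the limit at 1.60 ± 0.378 CPM, and it overlaps REXO4 in the annotation. ADAMTS7 has near-identical pseudogene copies, so its counts are uncertain.

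No procollagen peptidase of the family was detected: ADAMTS2, ADAMTS3 and ADAMTS14 had 24, 119 and 34 read pairs. Of the 7 proteoglycan-cleaving ADAMTS genes only ADAMTS1 was detected. ADAMTS4, an aggrecanase, averaged 1.22 ± 0.492 CPM with its highest value, 2.27 CPM, in replicate 8. ADAMTS5, the other main aggrecanase, had 5 read pairs, ADAMTS9 103, ADAMTS15 278, ADAMTS8 35 and ADAMTS20 none. The ratio of ADAMTS1 to ADAMTS4 was 2.64 ± 0.77 on log2 (RPKM + 0.1), but 3.31 with 0.01 added and 1.05 with 1 added. The orphan genes ADAMTS16 to ADAMTS19 were not detected, and ADAMTS18, the highest of them, was at 1.22 ± 0.356 CPM.

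Detection at the limit depended on single libraries. Just inside it were ADAM11, MMP1 and ADAMTS13, with lowest values of 1.02, 1.06 and 1.10 CPM, and just outside it ADAMTS12, ADAMTS4 and ADAMTS18, with lowest values of 0.997, 0.901 and 0.881 CPM. ADAMTS12, the close relative of ADAMTS7, fell outside through replicate 2 alone and averaged 3.49 ± 1.64 CPM. In all, 5 of the 44 members that were not detected had a mean of at least 1 CPM (MMP28, ADAMTS12, MMP25, ADAMTS4 and ADAMTS18), 17 had 1 to 20 read pairs over all libraries, and 7 had none (ADAM2, ADAM6, ADAM29, ADAM30, ADAMTS20, MMP26 and MMP27). For those 7 genes the depth allowed a level of up to 0.0665 to 0.088 CPM per library.

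In the order of mean RPKM over the 25 detected members, 8 of the 24 neighbouring steps exceeded the SD of their log2 difference over libraries and the other 16 did not. The steps from TIMP2 to TIMP1, from TIMP1 to ADAM9 and from ADAM9 to ADAM15 were within it. ADAM15 exceeded MMP14 (0.55 ± 0.11), MMP14 exceeded TIMP3 (0.78 ± 0.32) and TIMP3 exceeded ADAM17 (1.86 ± 0.61) on log2 RPKM, each in 8 of 8 libraries. All these steps use canonical lengths, 2936 nt for ADAM15 and 3701 nt for MMP14. The longest annotated transcripts are 4508 nt for ADAM15 and 3852 nt for MMP14. The step from ADAM15 to MMP14 thus depends on the length chosen, and their order is not settled. Of the 30 pairs of relatives or of an enzyme and its inhibitor, 23 had a detected gene and were tested. In 9 of these the other gene was not detected, so the choice of pairs largely set the sign, and they are given as values only. Of the 14 pairs with both genes detected, 11 had 1 sign in all 8 libraries at the smallest p of the exact permutation test, and the 3 others were TIMP1 to TIMP2, ADAM10 to ADAM17 and ADAMTS6 to ADAMTS10.

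**Figure D3:**
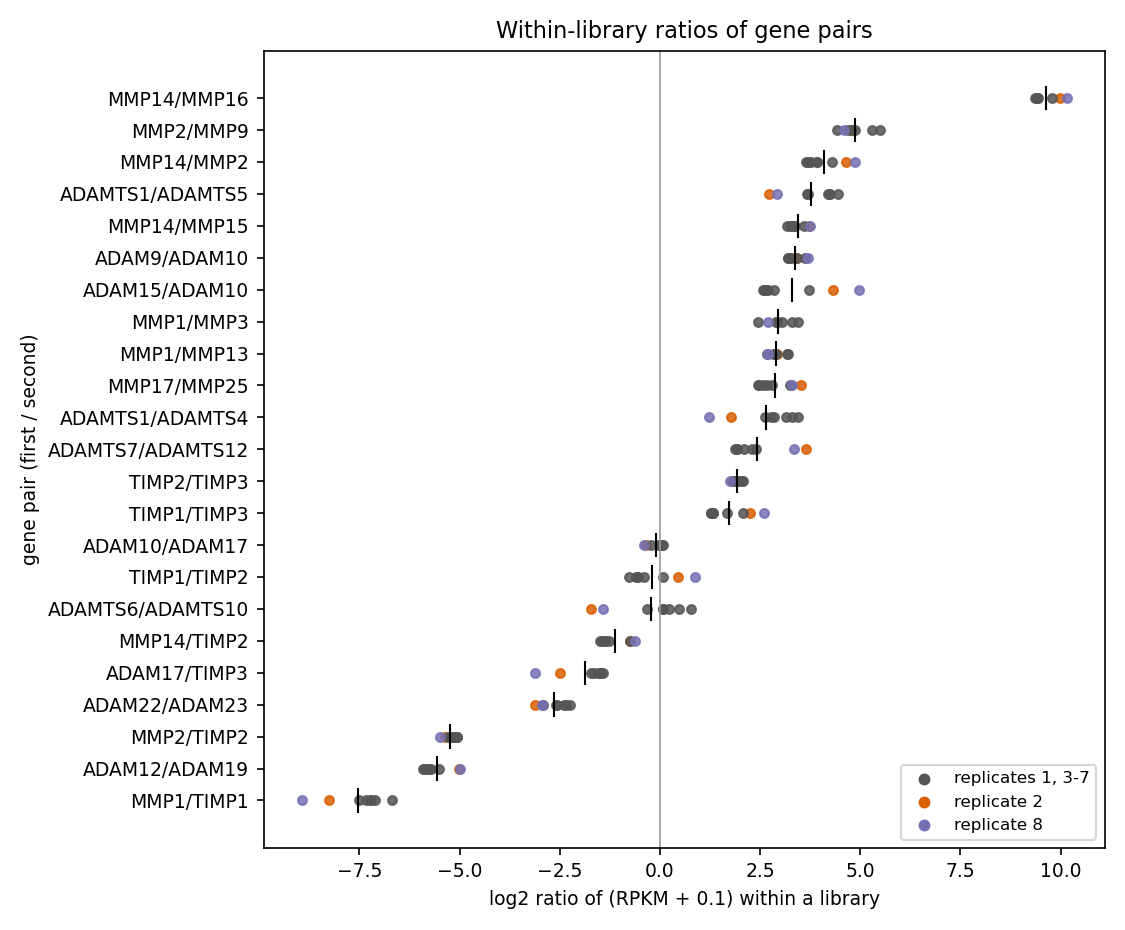
Log2 ratio of RPKM + 0.1 within each library for the 23 tested pairs, 1 point per library, with the mean as a bar, the line of equal levels at 0, and replicates 2 and 8 coloured. The points of 3 pairs straddle 0 (ADAM10/ADAM17, TIMP1/TIMP2 and ADAMTS6/ADAMTS10), replicates 2 and 8 often lie at an end, and ratios over genes with almost no reads, such as MMP14/MMP16, are set by the 0.1 added.

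Among the detected members, ADAM10, ADAMTS6 and ADAMTS1 stood out for their spread. These 3 of 25 varied more between libraries than genes of their abundance (edgeR goodness-of-fit test against the dispersion trend with Benjamini-Hochberg adjustment over 11980 genes), where 4.66% of all detected genes did so. The adjusted p was 0.00882 for ADAM10, 0.0233 for ADAMTS6 and 0.0433 for ADAMTS1. TIMP1 (adjusted p = 0.0784), ADAM9 (0.135) and ADAM17 (0.220) passed without adjustment only in the same edgeR test. The calls rested on few libraries: ADAM10 lost its call without replicate 8 (adjusted p = 0.0975), ADAMTS6 without replicate 2 (0.277) or 5 (0.0656), and ADAMTS1 without any 1 of replicates 1 to 6 (0.0506 to 0.323), in edgeR. Without replicates 2 and 8 together edgeR called 0 of the 26 members then detected, with 2 at an unadjusted p under 0.05. In that setting 2.75% of all 12173 detected genes were called.

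Replicates 2 and 8 were the 2 lowest libraries in log2 CPM for 8 of the 25 detected members (29.8% of all detected genes) and the 2 highest for 7 (33.7% of all detected genes). How often replicate 7 came next to them, as in TIMP1, MMP14, ADAM10 and ADAM17, was not counted over all detected genes. The low group held ADAM9, ADAM17, ADAM10, ADAM19, ADAM22, MMP2, ADAMTS6 and ADAMTS1, with a median transcript of 5832 nt. The high group held TIMP1, TIMP4, MMP14, MMP17, MMP24, ADAM15 and ADAMTS10, with a median of 2936 nt. Across the 25 members, the deviation of replicate 8 from the gene mean had a Pearson correlation of -0.66 with log2 transcript length (Spearman -0.61), and that of replicate 2 had -0.57 (Spearman -0.50). These points share 1 library each, and the values over 11636 detected genes with a length were -0.61 and -0.56.

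**Figure D4:**
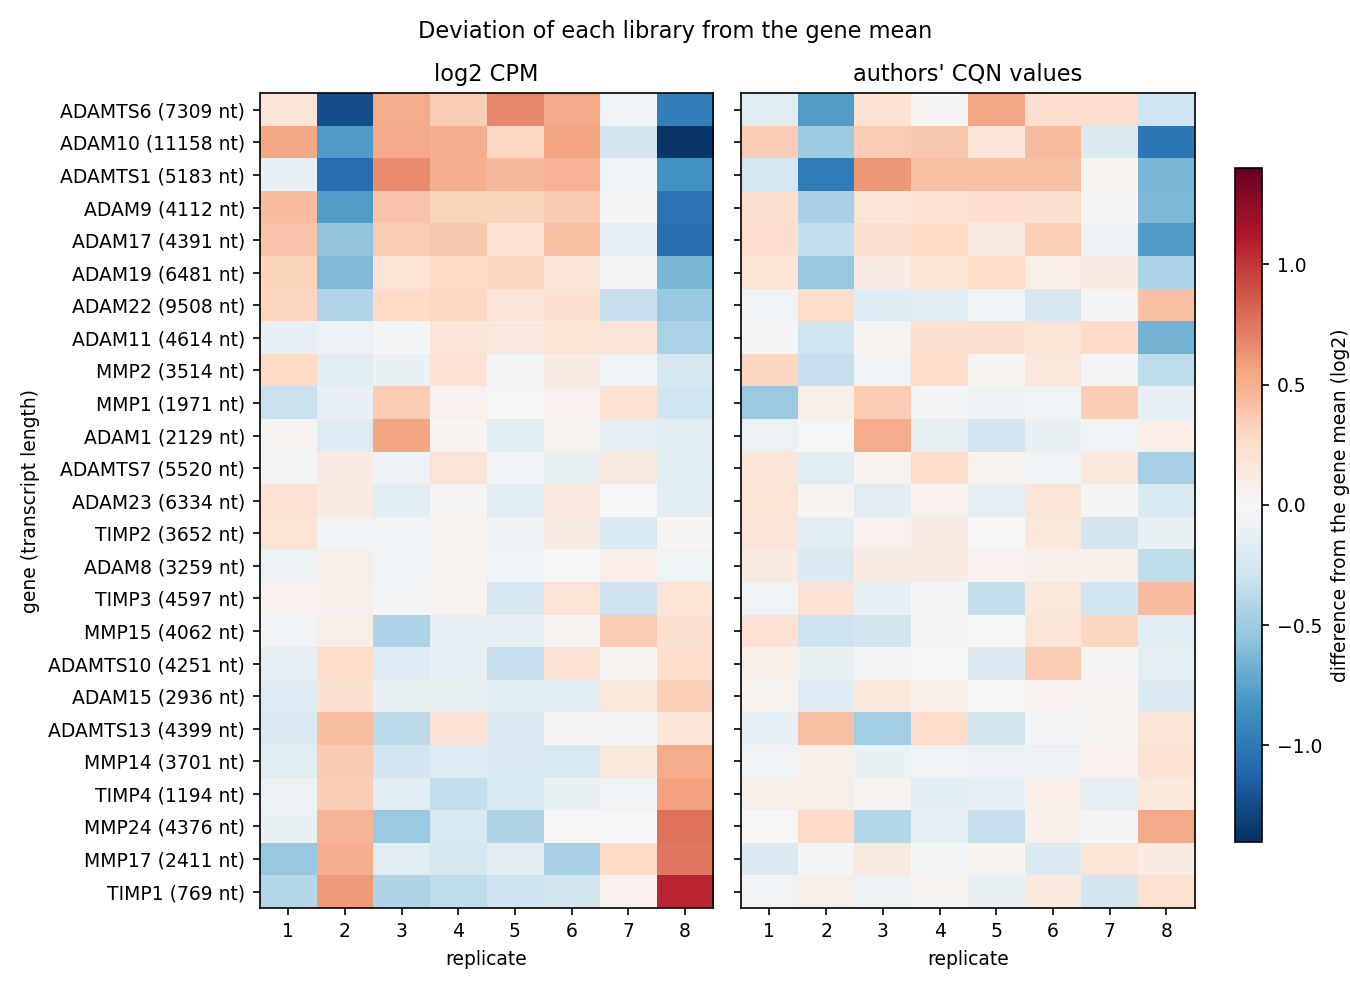
Log2 difference of each library from the gene mean for the 25 detected members, on log2 CPM (left) and on the authors' CQN values (right), with transcript length beside each name; red is above the mean and blue below. Columns 2 and 8 run from blue at the top (ADAMTS6, ADAM10, ADAMTS1, ADAM9, ADAM17) to red at the bottom (TIMP1, MMP17, MMP24) on the left, and on the right TIMP1 is nearly flat while ADAM9, ADAM10 and ADAM17 keep part of their blue.

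On the authors' CQN values the members parted. TIMP1, with the shortest transcript of the detected members, went from a deviation of 1.06 in replicate 8 on log2 CPM to 0.21, and its SD over libraries from 0.55 to 0.15. ADAM9 went from -1.04 to -0.62, ADAM17 from -1.06 to -0.80, ADAM10 from -1.36 to -1.01, ADAMTS1 from -0.84 to -0.64 and ADAMTS6 from -0.96 to -0.28 in the same library. In replicate 2 the change was smaller for the ADAMTS genes, from -1.25 to -0.78 for ADAMTS6 and from -1.07 to -0.99 for ADAMTS1, and went from -0.80 to -0.49 for ADAM10. On CQN values replicates 2 and 8 were the 2 lowest for 11 of 25 members (22.2% of all detected genes). They were the 2 highest for 4 (26.5% of all detected genes), namely MMP14, TIMP3, MMP24 and ADAM22. ADAM15 thus moved from the high group to the low one, and ADAM22 the other way. The median SD over libraries of the detected members was 0.26 on log2 CPM and 0.23 on CQN values, beside 0.27 and 0.16 for all detected genes. With each library's trend on length and GC content removed from log2 CPM instead, the SD of ADAM10 dropped from 0.74 to 0.24, that of ADAMTS1 from 0.65 to 0.55, and that of ADAMTS6 from 0.72 to 0.44. In that edgeR fit ADAMTS1 stayed above the variation trend, while ADAMTS6 (adjusted p = 0.0524) and ADAM10 (adjusted p = 1.00) did not.

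Genes known to control the members were also looked at. Of 17 genes for activation and cell-surface control, 13 were detected (76.5%, beside 51.3% of all listed genes) and 0 varied above the trend, against 4.66% of all detected genes; BSG, the MMP inducer CD147, was at 349 ± 101 RPKM, TSPAN14, a tetraspanin partner of ADAM10, at 68.6 ± 3.89 RPKM, and NRD1, an enhancer of shedding, at 64.7 ± 7.05 RPKM (SD, n = 8). The list's median level was 25.2 RPKM, beside 1.39 RPKM over all listed genes. Of 12 other inhibitors and clearance genes 7 were detected (58.3%), among them THBS1, thrombospondin-1, at 476 ± 166 RPKM and RECK, a membrane-anchored MMP inhibitor, at 8.62 ± 1.82 RPKM (SD, n = 8). The 58.3% detected lay between the share of all listed genes (51.3%) and that of listed protein-coding genes (60.3%). The list's median was 1.09 RPKM, and 0 of its genes varied above the trend.

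Of 24 substrates of shedding 20 were detected (83.3%), with a median of 19.6 RPKM over the list. The highest were MCAM at 329 ± 17.2 RPKM, the amyloid precursor APP at 309 ± 39.6 RPKM and VE-cadherin (CDH5) at 160 ± 37.5 RPKM (SD, n = 8). The EGF receptor ligands AREG, EREG and BTC and the cytokine TNF were not detected, and TGFA, another such ligand, varied above the trend (edgeR goodness of fit, adjusted p = 0.0452), with 1.37 CPM in both replicates 2 and 8 and 2.99 to 4.64 CPM in the others. Of 14 matrix substrates 10 were detected (71.4%), with FN1 at 655 ± 233 RPKM, COL4A2 at 238 ± 16.3 RPKM and COL4A1 at 129 ± 39.4 RPKM, and a list median of 3.52 RPKM. FBN1 (fibrillin-1) varied above the trend (edgeR goodness of fit, adjusted p = 0.00914), with its lowest values in replicates 8 and 2, at 110 and 146 CPM.

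All 5 receptors and partners of TIMPs were detected, with a median of 28.3 RPKM: the TIMP1 receptor CD63 was at 528 ± 142 RPKM, ITGB1 at 406 ± 93.8 RPKM and KDR, which TIMP3 binds, at 28.3 ± 7.30 RPKM (SD, n = 8). Of 8 zinc metalloproteinases outside the families, 4 were detected, with a list median of 0.247 RPKM. The share of 50.0% was near the 51.3% of all listed genes and below the 60.3% of listed protein-coding genes. ECE1, the endothelin-converting enzyme, was at 158 ± 12.3 RPKM, above every MMP. BMP1, the procollagen C-proteinase, was at 23.4 ± 2.28 RPKM and ECE2 at 1.65 ± 0.368 RPKM. In both lists 0 genes varied above the trend.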

How the data were processed

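Polyadenylated RNA of 8 hCMEC/D3 replicates was sequenced from TruSeq RNA Sample Prep Kit v2 libraries, per the labels. The submitters' processing notes name CASAVA 1.9, TopHat2 2.0.6, HTSeq and the build hg19, without stating what each did. The deposited table holds whole-number counts per gene, not normalised, and log2-scale values that the authors made by conditional quantile normalisation (CQN), per the file headers. All counts were even. The reason is not given in the sources used here, nor is the use of strand. CQN values were given for 13962 genes, 35 of them members.

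The members, gene lists, pairs and tests were chosen with earlier results of these data known. CPM used TMM library sizes (edgeR 4.0.16, R 4.3.3). RPKM divided CPM by the canonical transcript length in GENCODE lifted to GRCh37, which gives a known length to all 69 members. Genes were matched by symbol or synonym. Table starts count from 0 and are printed 1-based. Genes with at least 1 CPM in all 8 libraries were called detected. Variation was tested by edgeR's goodness-of-fit test in an intercept-only model (trended dispersion, adjusted p under 0.05). On simulated counts for 11980 genes and 8 libraries of 1 group, 0 were called with none changed, and 176 of 200 genes raised 4-fold in 1 library were recovered among 179 called. Pair ratios used log2 (RPKM + 0.1), SciPy 1.17.1 and NumPy 2.4.6.

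Named genes were all TIMPs, the 6 highest MMPs, ADAMs and ADAMTS genes, all members above the trend, at the limit or without counts, the genes of tested pairs, a fixed set, and the 3 highest and the most variable genes of each list. Some genes this rule names are not reported here. Other members are named for their counts, after these were seen. Alternatives were other scaling (DESeq2 1.42.0), detection limits, dispersion trend, transcript lengths, pseudocounts, a length and GC correction and left-out libraries. A search of the members' proteins for the zinc-binding motif was foreseen and was not analysed here.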

Additional observations from a re-analysis of the deposited data

Results flagged for a closer look

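For the 25 detected members and the 23 pair ratios the highest and the lowest library were compared with the nearest other library by Dixon's criterion at 8 samples (0.526), which chance passes in about 1 in 20 groups, and 2 of 48 checks passed it. ADAM1, the pseudogene, was highest in replicate 3, at 3.64 CPM beside 1.99 to 2.41 CPM in the other 7 libraries, a gap of 0.690 of its range in log2 CPM. ADAM11 was lowest in replicate 8, at 1.02 CPM beside 1.41 to 1.85 CPM in the others, a gap of 0.540 of the range. ADAM11 is just inside the detection limit through that library.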

How the results depend on the processing

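No paired analysis was possible because all libraries belong to 1 group. With any count in all libraries as the limit 45 members were detected (13 MMP and 15 ADAMTS genes, beside 70.1% of all listed genes), with at least 10 counts 10 MMP and 11 ADAMTS genes (62.8%), and with a mean of 1 CPM 8 ADAMTS genes (54.2%). Leaving out 1 library gave 25 to 26. Members above the variation trend numbered 8 with DESeq2's trend (2811 genes in all, 23.5% of those detected). They numbered 1 with the length and GC trend removed (6.59% of all detected genes). Without replicates 2 and 8 they numbered 0 (edgeR, 2 unadjusted), beside 2.75% of all detected genes. Leaving out 1 library gave 1 to 3, with 1 without replicate 5, beside 3.15% to 4.09% of all detected genes.

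Pair ratios past the threshold numbered 20 to 22 of 23, and 16 of 17 on CQN values. The 23 pairs include 9 in which 1 gene was not detected, so the choice of pairs largely set their sign. Of the 14 pairs with both genes detected, 11 passed in the main setting. The log2 ratio of TIMP1 to TIMP3 was -0.85 on CPM and -0.079 on CQN values. That of ADAM10 to ADAM17 was 0.47 with the longest transcripts, 2.73 with the median complete coding transcripts (chosen after seeing the data), 1.24 on CPM and 1.07 on CQN values. That of ADAMTS6 to ADAMTS10 was 0.53 on CPM and 0.22 without replicates 2 and 8. The transcript and CPM settings differ in length alone. The cause of the other changes was not tested. ADAMTS1 lost its call with at least 10 counts as the limit (edgeR, adjusted p = 0.0617), and ADAMTS12 and MMP28, which then entered the test, were called. The number of members with a mean of at least 1 RPKM was 20 under all length and scaling settings run. Halving the counts, also chosen after seeing the data, left 25 detected and 3 above the trend. For the 17 members with 1 to 20 read pairs, counting error is large beside the level.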
